A study of Danio rerio with 6 samples.

Results

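The SoxB1 and SoxC transcription factors were followed in the adult zebrafish telencephalon after injury. Rows of the count files were taken for the 9 genes *sox1a*, *sox1b*, *sox2*, *sox3* and *sox19a* (SoxB1) and *sox4a*, *sox4b*, *sox11a* and *sox11b* (SoxC), which are 9 of the 32520 genes listed. Polyadenylated RNA had been sequenced from 3 injured hemispheres, each pierced with a syringe needle and taken 5 days post lesion (dpl), and from 3 control hemispheres without treatment. Each hemisphere gave 1 library, and the methods describe the control as the uninjured hemisphere opposite the lesion, so that a control carries any effect of the lesion on the other side of the brain. The labels name no strain, age, sex or transgene. Whole hemispheres were sequenced, so that fewer cells of a type and less RNA per cell cannot be told apart in any value given here.

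Sox proteins bind DNA through an HMG box and are grouped by the sequence of that domain. SoxB1 factors hold neural stem and progenitor cells in an undifferentiated state, and Sox2 is widely used to mark the radial glia that serve as stem cells of the zebrafish telencephalon. SoxC factors appear later in the lineage. In chick and mouse, Sox4 and Sox11 drive neuronal genes in cells that leave the progenitor state, and both families are therefore read together as stem cell and newborn neuron regulators.

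Expression is given as CPM, in which the reads of a gene are brought to 1 total of reads on genes for all libraries, with totals corrected by TMM factors. CPM are not divided by the length of a transcript, so that levels are compared between conditions and not between genes. The log2 fold change (log2FC) is positive where injured hemispheres were higher, and is given with its standard error (SE). Between 63200617 and 91663196 reads were counted on genes in injured libraries and between 59675791 and 84610201 in control libraries. The members had between 186 and 32572 reads in a library, apart from the gene with none. As a marker of the labelled tissue, *emx3*, a gene of the dorsal telencephalon, was present at 55.1 to 66.8 CPM in injured and 49.3 to 52.7 CPM in control libraries. Injured replicates 1 and 3 stood apart in transcripts of pineal and photoreceptor genes, whose summed CPM were 222, 17.9 and 508 in injured replicates 1, 2 and 3 and between 14.4 and 17.8 in control libraries. Injured replicate 1 also stood apart in the habenula gene *gng8*. Its CPM were 3.84, 0.0853 and 0.155 in injured replicates 1, 2 and 3 and between 0.103 and 0.204 in control libraries. *pou4f1* is a further habenula gene named here after its values were seen. It had 172, 9 and 2 reads in injured replicates 1, 2 and 3 and between 2 and 4 in control libraries. *kiss1*, likewise named afterwards, had 103, 27 and 2 reads in injured and 1, 0 and 0 in control replicates 1, 2 and 3. Other genes of the habenula and diencephalon list set injured replicate 1 apart less or not at all. *lhx9* had 23.1 CPM in injured replicates 1 and 2 and up to 22.4 CPM in control libraries. *tac3a* had 5.87, 4.88 and 4.22 CPM in injured replicates 1, 2 and 3 and up to 5.43 CPM in control libraries. *tcf7l2* was above all control libraries in each injured library. It had 21.4, 16.4 and 16.9 CPM in injured replicates 1, 2 and 3 and 11.6 to 13.7 CPM in control libraries. Injured replicate 1 was thus the highest library for *tac3a* and *tcf7l2*. The libraries are numbered 1 to 3 in each condition, and libraries with the same number deviated together, so that differences within a number are also given.

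Of the 9 members, 8 had reads and were tested, and 5 rose after injury, namely *sox2* and *sox3* of SoxB1 and *sox4a*, *sox4b* and *sox11a* of SoxC. These increases were between 1.28-fold for *sox2* and 1.67-fold for *sox11a*. No member fell. SOX1 (ENSDARG00000008131), *sox19a* and *sox11b* did not pass the test, and 1 gene had no read. Among the 22558 genes tested, 11.6% were called higher and 4.82% lower by edgeR's quasi-likelihood test at an adjusted *p*-value (adjp) below 0.05, with Benjamini-Hochberg adjustment over all genes tested. No member was lower at an unadjusted *p*-value below 0.05 either, and the DESeq2 Wald test called 0 lower and 5 higher. The median log2 fold change was 0.43 over the 8 members and -0.0038 over all genes tested.

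The names of the members were not all settled. *sox2*, *sox3* and *sox19a* had 1 gene each, while 2 genes are named SOX1 in the table of Ensembl names, which are *sox1a* and *sox1b* in an order that the sources used here do not give. They are called by their identifiers. *sox4a* (ENSDARG00000004588), *sox4b* (ENSDARG00000098834) and *sox11a* (ENSDARG00000077811) follow the gene names of the study, and *sox11b* (ENSDARG00000095743) is the other gene named SOX11. A further identifier that the Ensembl table calls *sox4a*, ENSDARG00000096389, had 0 reads in all 6 libraries and was not used. In the RefSeq annotation of a later assembly, GRCz12tu, other genes lie across *sox1a*, *sox2*, *sox3*, *sox19a* and *sox11b*, all of them long non-coding RNAs except *rev1* at *sox1a*. Whether counting used the strand is not given in the sources used here. Reads of a neighbour that was not counted as a gene of its own cannot be told apart from those of the member. The neighbour *sox2ot* had counts of its own, which are given below.

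Among the SoxB1 genes, *sox2* (ENSDARG00000070913), which maintains neural stem cells, had 99.3, 111 and 110 CPM in injured replicates 1, 2 and 3 and 79.8, 87.5 and 82.8 CPM in control replicates 1, 2 and 3. The lowest injured library exceeded the highest control library, as for 20.3% of the genes tested. Expression averaged 107 ± 6.55 CPM in injured and 83.4 ± 3.89 CPM in control hemispheres (SD, n = 3 each), a log2FC of 0.36 ± 0.059 (SE, adjp = 0.00882). Within the same replicate number, the log2 difference between injured and control was 0.31, 0.34 and 0.41.

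The long non-coding RNA *sox2ot*, whose gene overlaps *sox2* in the RefSeq annotation, was measured separately. It had 14.3, 12.2 and 15.0 CPM in injured replicates 1, 2 and 3 and 14.6, 12.8 and 14.9 CPM in control replicates 1, 2 and 3. The conditions overlapped, and the log2 fold change of *sox2ot* was -0.031 (SE 0.10, adjp = 0.881). The *sox2* reads were thus higher after injury while those of *sox2ot* differed by less than the spread between replicates.

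*sox3* (ENSDARG00000053569), the X-linked paralogous gene of *Sox2* in mammals, likewise acts in neural progenitors. It had 49.2, 55.9 and 43.7 CPM in injured replicates 1, 2 and 3, against 35.7, 40.4 and 35.6 CPM in control replicates 1, 2 and 3. The conditions did not overlap, and the log2FC was 0.41 ± 0.097 (SE, adjp = 0.0289). This call was lost without injured replicate 1 or 2, at an adjp of 0.0653 and 0.0670, and without control replicate 1 or 3, at 0.101 and 0.104, while the log2 fold change of *sox3* stayed between 0.31 and 0.50 with each library left out.

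*sox19a* (ENSDARG00000010770), a SoxB1 gene of fish that is active in the early neural ectoderm, varied widely between replicates. Its CPM were 6.40, 13.2 and 13.0 in injured replicates 1, 2 and 3 and 3.19, 8.57 and 9.13 in control replicates 1, 2 and 3. Replicate 1 was lowest in each condition, and injured replicate 1 lay below control replicates 2 and 3. The log2FC was 0.64 ± 0.42 (SE, adjp = 0.359) with a 95% confidence interval of -0.34 to 1.61.

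Including *sox19a*, 6 of the 8 members were higher in the injured hemisphere of every replicate number, as were 31.5% of the genes tested, with 31.6% lower in every number. Within each number *sox19a* was higher in the injured hemisphere, by 1.01, 0.63 and 0.51 on the log2 scale for numbers 1, 2 and 3. When edgeR was fitted with a block for the replicate number, the log2FC was 0.69 ± 0.095 (SE, adjp = 0.00202), so that this gene was called higher and the number of members called rose to 6. With the block, 19.9% of the genes tested were called higher and 16.2% lower. The biological coefficient of variation of *sox19a* in the fit without the block, 0.359, lay at the 95.5th percentile of the genes tested.

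Of the *sox1* pair, SOX1 (ENSDARG00000008131) had 16.3, 17.8 and 17.6 CPM in injured replicates 1, 2 and 3, and 16.7, 17.8 and 16.9 CPM in control replicates 1, 2 and 3. The libraries of the conditions overlapped. The log2FC was 0.0059 ± 0.063 (SE, adjp = 0.967), and its 95% confidence interval from -0.14 to 0.15 leaves out changes of the size fitted for *sox2* and *sox3*. Whether SOX1 differed in its change from these genes was not tested. The other gene, SOX1 (ENSDARG00000069866), had 0 reads in all 6 libraries. A count of 0 allows up to 3 reads per library, which is between 0.0320 and 0.0465 CPM in injured and between 0.0360 and 0.0514 CPM in control libraries. This limit covers counting error only, and HTSeq in union mode sets aside reads that fall on more than 1 gene.

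**Figure D1:**
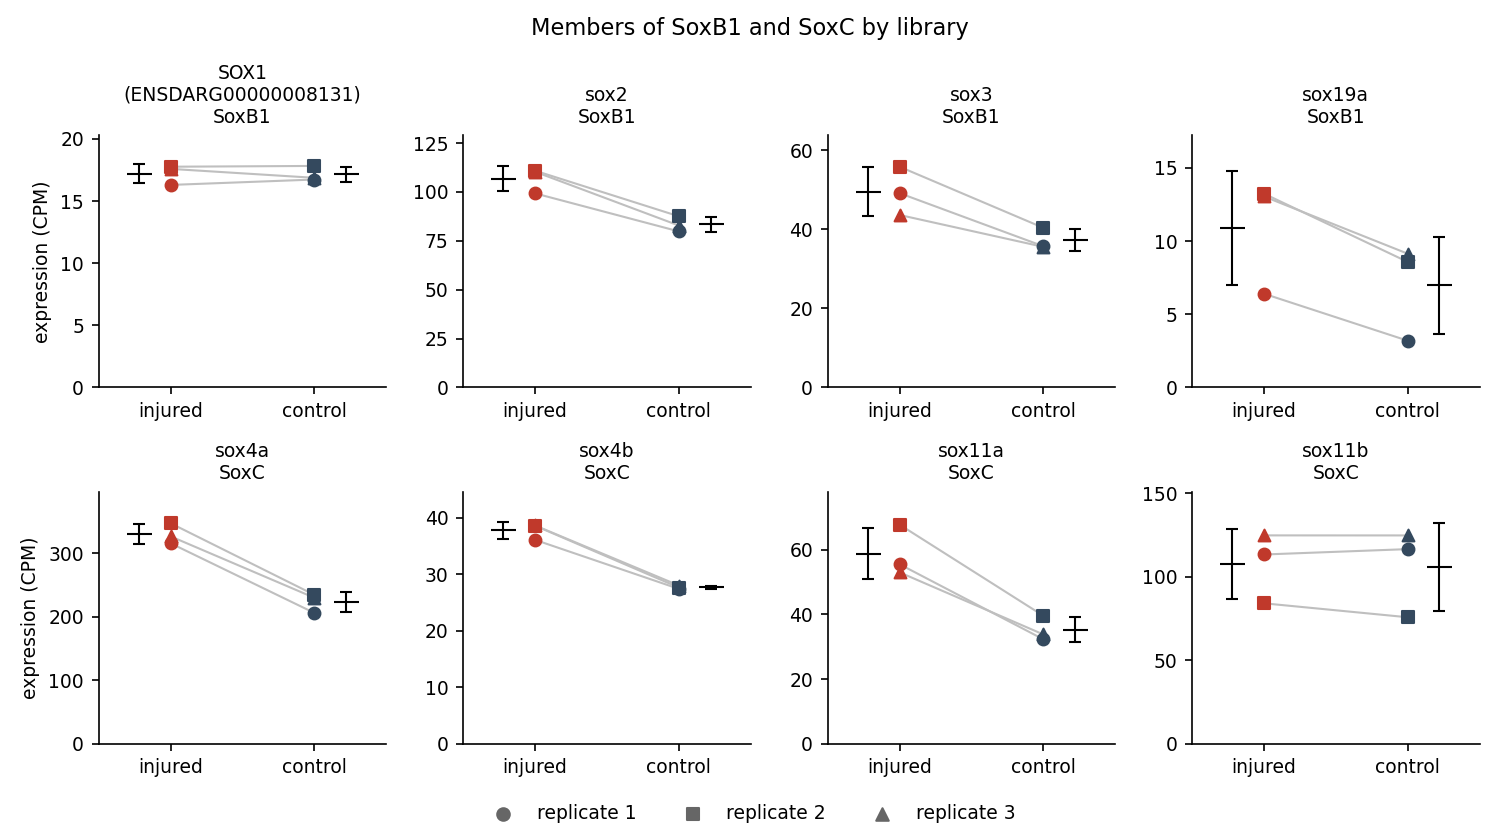
Expression in CPM (vertical axis, from 0) of the 8 members with reads in each injured (red, left) and control (dark, right) library. Symbols mark the replicate number, grey lines join libraries of the same number, and black bars give the mean ± SD (n = 3). Injured libraries lie above all control libraries for *sox2*, *sox3*, *sox4a*, *sox4b* and *sox11a*, as they do for 20.3% of the genes tested. *sox19a* is higher within each number only, and *sox11b* and SOX1 overlap.

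Among the SoxC genes, *sox4a* acts in cells that become neurons. It had 316, 347 and 327 CPM in injured replicates 1, 2 and 3, against 206, 235 and 230 CPM in control replicates 1, 2 and 3. All injured libraries lay well above all control libraries. The means were 330.1 ± 16.0 CPM in injured and 224 ± 15.3 CPM in control hemispheres (SD, n = 3 each), a 1.48-fold increase with a log2FC of 0.56 ± 0.061 (SE, adjp = 0.00230). Its log2 fold change stayed between 0.51 and 0.60 with each library left out, and the call was kept each time.

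Its paralogous gene *sox4b* rose as well, with a small spread between libraries. It stood at 36.1, 38.6 and 38.7 CPM in injured replicates 1, 2 and 3 and at 27.4, 27.7 and 28.0 CPM in control replicates 1, 2 and 3. The conditions were far apart relative to this spread. The log2FC was 0.45 ± 0.050 (SE, adjp = 0.00247). Leaving out a library at a time gave values of 0.43 to 0.47, each with an adjp of at most 0.0156.

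*sox11a*, of a gene pair whose mouse counterpart Sox11 is needed for neurons born in the adult hippocampus, had the largest fitted increase among the 5 members called. The CPM were 55.5, 67.8 and 53.0 in injured replicates 1, 2 and 3 and 32.3, 39.6 and 33.8 in control replicates 1, 2 and 3. Again no injured library lay among the control libraries. The log2FC was 0.74 ± 0.11 (SE, adjp = 0.00676). It was 0.62 to 0.83 when libraries were left out one by one, where the adjp reached at most 0.0339.

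*sox11b* did not share this pattern. It had 113, 84.1 and 125 CPM in injured replicates 1, 2 and 3 and 117, 75.8 and 125 CPM in control replicates 1, 2 and 3. The values followed the replicate number, with number 2 lowest in each condition, and the conditions overlapped throughout. The log2FC was 0.023 ± 0.21 (SE, adjp = 0.959) with a 95% confidence interval of -0.46 to 0.51. With the replicate number as a block the log2FC was 0.037 ± 0.041 (SE, adjp = 0.533), so that *sox11b* was not called by the fit that called *sox19a* either.

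The *sox11* genes were set against each other by their ratio of reads within each library, in which transcript length cancels between conditions. The ratio of *sox11a* to *sox11b* was 0.490, 0.806 and 0.425 in injured replicates 1, 2 and 3 and 0.277, 0.522 and 0.271 in control replicates 1, 2 and 3. It was higher in the injured hemisphere of each replicate number, by 0.82, 0.62 and 0.65 on the log2 scale, but control replicate 2 lay above injured replicates 1 and 3. The mean log2 difference was 0.70, with an SD of 0.11 over the 3 pairs of libraries. With the replicate number as a block, edgeR gave a log2FC of 0.74 ± 0.039 (SE, adjp = 7.79e-05) for *sox11a*, against the 0.037 ± 0.041 of *sox11b* given above.

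The corresponding mean log2 difference was 0.12 for the ratio of *sox4a* to *sox4b* and -0.19 for that of *sox19b* to *sox19a*. The ratio of *sox4a* to *sox4b* lay between 8.45 and 8.995 in injured and between 7.51 and 8.48 in control libraries, while the *sox19* ratio varied widely, from 2.05 to 4.01 in injured and from 2.01 to 5.56 in control libraries. In the libraries taken as unpaired, two-sided exact permutation tests gave p = 0.3 for *sox11a* to *sox11b*, 0.2 for *sox4a* to *sox4b* and 0.7 for *sox19b* to *sox19a* (0.45, 0.45 and 0.7 adjusted over the 3 ratios). Exact sign-flip tests over the pairs, an alternative chosen after seeing the data, gave p = 0.25, 0.25 and 0.5 for the same ratios in this order. The smallest *p*-values that these exact tests can give are 0.1 over libraries and 0.25 over pairs, so that they cannot pass 0.05 and do not show whether paralogous genes differed in their change.

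**Figure D2:**
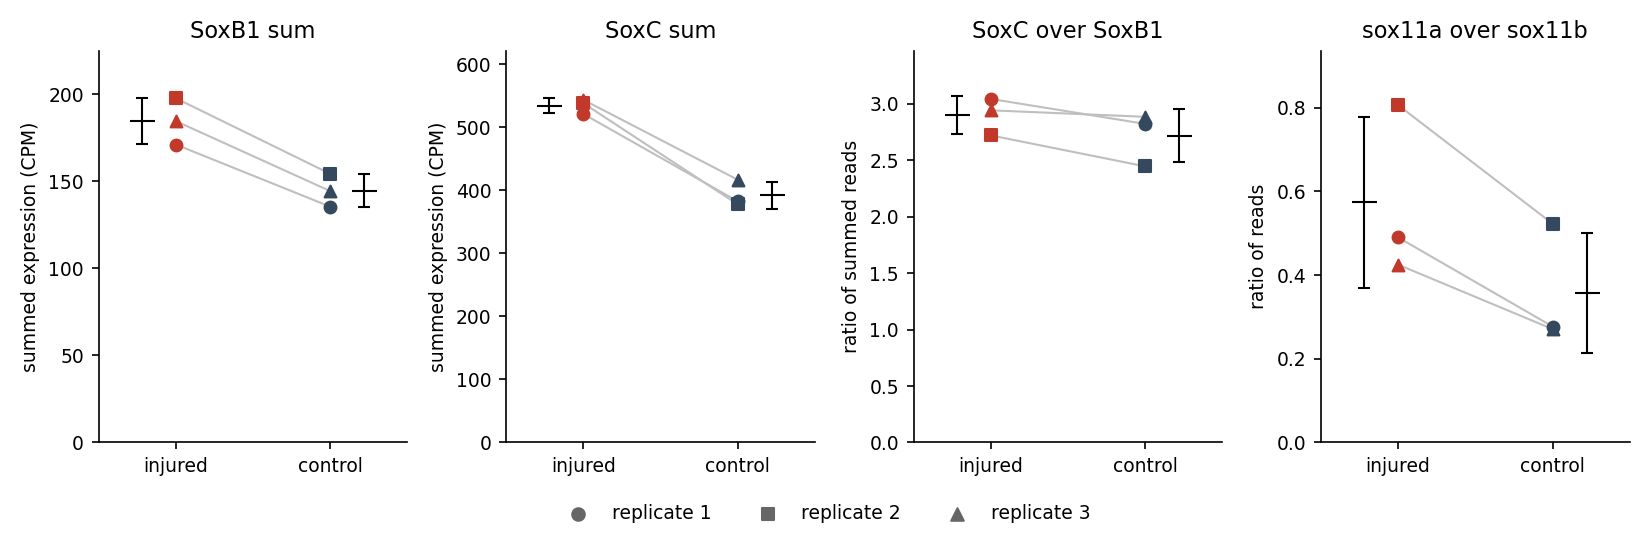
Summed expression of the SoxB1 members and of the SoxC members in CPM, and the ratio of these SoxC to SoxB1 reads. The last panel gives the ratio of *sox11a* to *sox11b* reads. Each injured (red, left) and control (dark, right) library is shown, with all axes from 0. Grey lines join libraries of the same replicate number and black bars give the mean ± SD (n = 3). The sums do not overlap between conditions, at 171 CPM or more in injured and 154 CPM or less in control libraries for SoxB1, whereas the ratios do.

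Stem cell SoxB1 and newborn neuron SoxC genes were set against each other by the sum of their reads. The sums hold the members only and leave out the SoxB1 gene *sox19b* and the SoxC gene *sox12*, which are described below. The SoxB1 sum was 171, 198 and 185 CPM in injured replicates 1, 2 and 3 and 135, 154 and 144 CPM in control replicates 1, 2 and 3. The SoxC sum was 521, 538 and 543 CPM in injured replicates 1, 2 and 3 and 382, 378 and 417 CPM in control replicates 1, 2 and 3. For neither sum did the conditions overlap, and 20.3% of the genes tested likewise had all injured above all control libraries.

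Between 56.1% and 59.8% of the SoxB1 reads of injured libraries and between 56.7% and 58.9% of those of control libraries came from *sox2*. *sox4a* made up between 60.1% and 64.6% of the SoxC reads in injured and between 53.9% and 62.1% in control libraries. The share of *sox11b* was between 15.6% and 23.0% in injured and between 20.1% and 30.5% in control libraries. *sox2* and *sox4a* therefore weigh most in the sums. The SoxC sum also holds *sox11b*, whose log2FC was 0.023 and which followed the replicate number.

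The ratio of SoxC to SoxB1 reads was 3.04, 2.72 and 2.94 in injured replicates 1, 2 and 3 and 2.82, 2.45 and 2.88 in control replicates 1, 2 and 3. It was higher in the injured hemisphere of each replicate number, yet the ranges of the conditions overlapped. The mean log2 ratio was 1.54 ± 0.083 in injured and 1.44 ± 0.13 in control hemispheres (SD, n = 3 each), a difference of 0.097 that is smaller than the SD of the control libraries. Without control replicate 2 the difference was 0.023, and without injured replicate 1 it was 0.062. Both sums were thus higher after injury. With the libraries taken as unpaired, a shift in the balance of the sums was not seen beyond the spread between libraries. The ratio was lowest for replicate 2 in each condition. There *sox11b* was lowest, at 84.1 CPM in the injured and 75.8 CPM in the control library. The SoxB1 sum was highest there, at 198 and 154 CPM. A ratio without *sox11b*, which did not change like the other SoxC members, was not formed. The spread between libraries thus also holds differences between replicate numbers. A comparison with it therefore does not decide whether the balance shifted within replicate numbers. The ratio was not tested, since the members had been chosen with results of these data known.

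Other Sox genes gave a view of the family around the members. Of 18 further Sox genes named in the files, 17 were tested, 9 rose and none was called lower, with a median log2 fold change of 0.27. Over all genes tested, 11.6% were called higher and 4.82% lower, shares to be set beside this count and the later ones. A single one, SOX8 (ENSDARG00000105301), was lower by edgeR before adjustment of the *p*-value, and the DESeq2 Wald test called 1 lower. The number of these genes called higher was between 5 and 7 with each library left out, with 5 without control replicate 1 or 2.

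The closest relatives of the members rose after injury. *sox19b*, a further SoxB1 gene, had 25.7, 28.2 and 26.8 CPM in injured replicates 1, 2 and 3 and 17.7, 19.8 and 18.4 CPM in control replicates 1, 2 and 3, a log2FC of 0.53 ± 0.066 (SE, adjp = 0.00341). *sox12*, the third SoxC gene of vertebrates, had 24.9, 29.4 and 24.0 CPM in injured replicates 1, 2 and 3 and 16.1, 18.4 and 16.5 CPM in control replicates 1, 2 and 3, a log2FC of 0.62 ± 0.095 (SE, adjp = 0.00693). Conditions were separate for each, and each call was kept with each library left out.

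*sox21b*, a SoxB2 gene of a group that counteracts SoxB1 factors in chick neural progenitors, rose as well. It averaged 16.7 ± 0.588 CPM in injured and 11.04 ± 0.277 CPM in control hemispheres (SD, n = 3 each), a log2FC of 0.60 ± 0.061 (SE, adjp = 0.00188). *sox21a* had 0 reads in all libraries. Of the 2 genes named SOX14, the other SoxB2 factor, neither passed the test, with log2 fold changes of -0.0086 and -0.29.

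SoxE genes act in glia. *sox9b*, a factor of radial glia, had a log2FC of 0.70 ± 0.061 (SE, adjp = 0.00118) and *sox10*, a factor of oligodendrocytes, one of 0.57 ± 0.064 (SE, adjp = 0.00250). *sox9a* had a log2FC of 0.27 ± 0.057 (SE, adjp = 0.0185), a call that was lost without injured replicate 3, control replicate 1 or control replicate 2, at an adjp of 0.0582, 0.0597 and 0.0538. The genes named SOX8 went apart. SOX8 (ENSDARG00000037782) was scarce, at 1.49 ± 0.195 CPM in injured and 0.749 ± 0.141 CPM in control hemispheres (SD, n = 3 each), with a log2FC of 0.99 ± 0.20 (SE, adjp = 0.0187) and an adjp of 0.0508 to 0.0692 without injured replicate 2 or 3 or control replicate 1 or 2.

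SOX8 (ENSDARG00000105301) had 15.9, 15.5 and 17.0 CPM in injured replicates 1, 2 and 3, below the 19.3, 18.7 and 18.2 CPM of control replicates 1, 2 and 3. Its log2FC of -0.21 ± 0.063 (SE, adjp = 0.0587) did not pass the test in edgeR, but it did with the replicate number as a block, at an adjp of 0.0213, in the DESeq2 Wald test, at an adjp of 0.0191, and with RLE normalization, at an adjp of 0.0480. In the 16 alternatives run, no other Sox gene was called lower.

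Among the SoxD genes, which act beside SoxE factors in glia, *sox13* had a log2FC of 0.29 ± 0.067 (SE, adjp = 0.0274), and this call was lost without each of injured replicates 1 and 2 and control replicates 1, 2 and 3, at an adjp of 0.0600 to 0.0912. *sox5* and *sox6* had log2 fold changes of 0.083 ± 0.033 (SE, adjp = 0.141) and 0.18 ± 0.075 (SE, adjp = 0.158), and with the replicate number as a block their adjp was 0.0424 and 0.00608. Scaled by library size alone, *sox5* had an adjp of 0.0306. Among the SoxF genes of endothelial cells, *sox7* had a log2FC of 0.33 ± 0.082 (SE, adjp = 0.0356) that kept its call without injured replicate 3 and lost it without each other library, at an adjp of 0.0776 to 0.111. *sox18*, *sox17* and *sox32*, the last an endoderm gene of fish, were not called, with log2 fold changes of 0.22, 0.25 and -0.022.

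**Figure D3:**
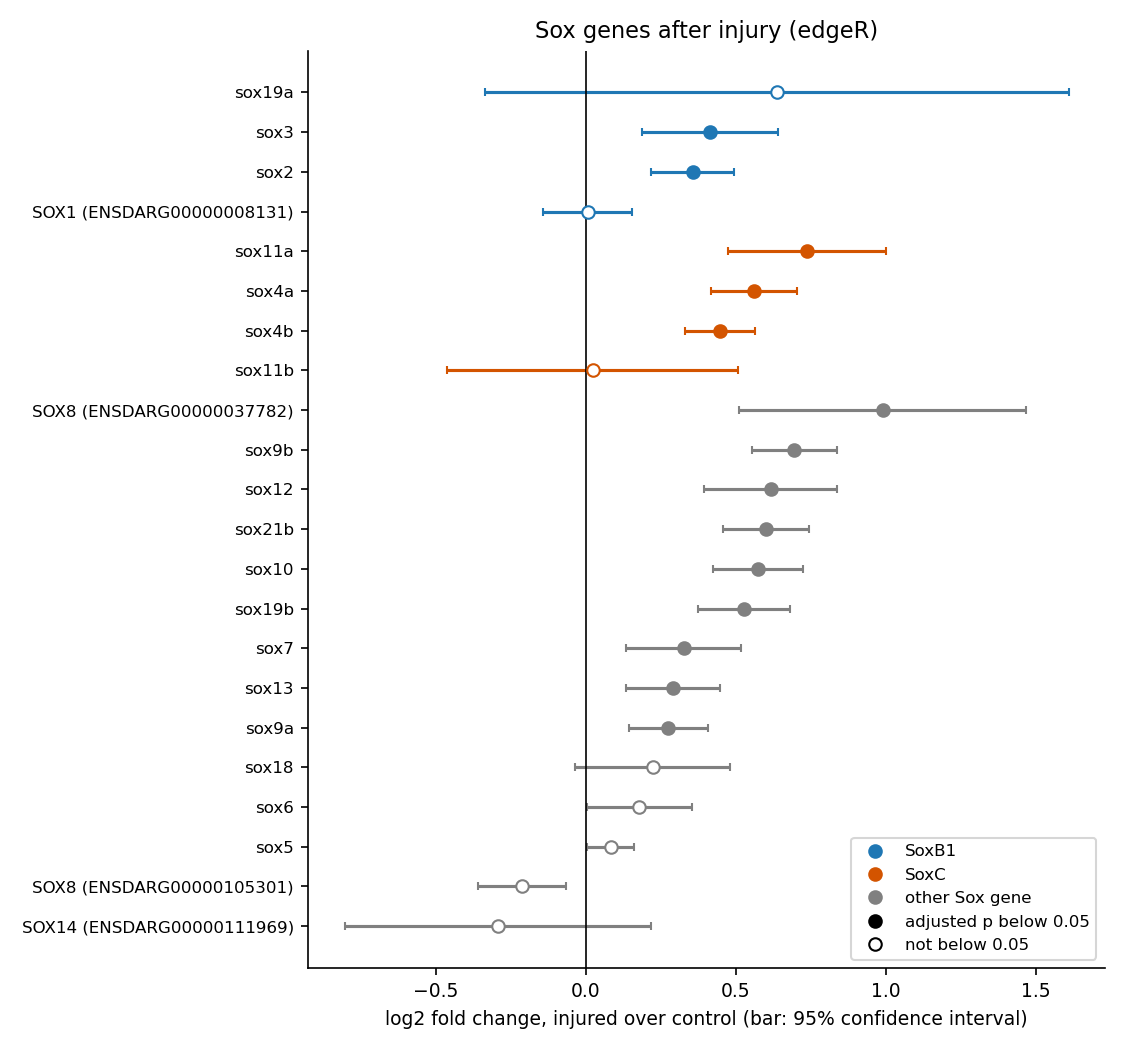
Log2 fold change of injured over control (horizontal axis) with its 95% confidence interval for the tested Sox genes whose mean CPM in injured and control hemispheres add up to more than 2, by group (blue SoxB1, orange SoxC, grey other Sox genes). Filled points have an adjusted *p*-value below 0.05. Fold changes of the members run from 0.0059 for SOX1 (ENSDARG00000008131) to 0.74 for *sox11a*, and the intervals of *sox19a* and *sox11b* are the widest among them.

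SoxB1 proteins act with partner factors on DNA, among them class III POU factors, the class V factor Pou5f3 and Pax6. Of 7 such genes, 2 rose, namely *pax6a* and *pou5f3*, while none of the 4 class III POU genes was called, and the median log2 fold change was 0.22. None fell by edgeR or DESeq2, and 0 were lower at an unadjusted *p*-value below 0.05. *pou3f3b*, with 104 ± 4.49 CPM in injured and 98.3 ± 5.62 CPM in control hemispheres (SD, n = 3 each), had a log2FC of 0.086 ± 0.056 (SE, adjp = 0.353), and *pou3f3a* one of 0.052 ± 0.058 (SE, adjp = 0.617). *pax6a* had a log2FC of 0.25 ± 0.054 (SE, adjp = 0.0214), with an adjp of 0.0573 to 0.0838 without injured replicate 2 or 3 or control replicate 1 or 2. The other gene called was *pou5f3*, named here after its values were seen, with 0.906 ± 0.0722 CPM in injured and 0.422 ± 0.0915 CPM in control hemispheres (SD, n = 3 each) and a log2FC of 1.098 ± 0.23 (SE, adjp = 0.0184). No gene of this list was called by edgeR without control replicate 1, control replicate 2 or injured replicate 3, and 1 without injured replicate 2.

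Markers of the cells in which the members are known were read from lists. A list was matched through gene names of the study where possible. These names cover mainly genes that the study called changed, so that the matching favours genes called. They gave 11 of the 14 radial glia genes, 6 of the 15 newborn neuron genes and 9 of the 13 mature neuron genes. Counts and medians of the lists are thus affected unequally. In the radial glia list 12 of 14 genes rose, with a median log2 fold change of 0.52. None fell by edgeR or DESeq2, and 0 were lower at an unadjusted *p*-value below 0.05. *notch3*, a receptor that keeps radial glia quiescent, averaged 407 ± 18.4 CPM in injured and 283 ± 14.6 CPM in control hemispheres (SD, n = 3 each), a log2FC of 0.52 ± 0.053 (SE, adjp = 0.00183). *cx43*, a gap junction protein of glia, had a log2FC of 0.31 ± 0.038 (SE, adjp = 0.00330). Without control replicate 1 or 3 the number of radial glia genes called was 8.

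In the list for newborn neurons 5 of 15 genes rose, and the median log2 fold change was 0.028. None was called lower by edgeR, 1 was lower at an unadjusted *p*-value below 0.05, and DESeq2 called 1 lower. *tubb5*, a tubulin of growing neurons, had 502, 669 and 522 CPM in injured replicates 1, 2 and 3 and 294, 329 and 309 CPM in control replicates 1, 2 and 3, a log2FC of 0.86 ± 0.11 (SE, adjp = 0.00354). The others called were *ascl1a*, *neurog1*, *insm1a* and *nhlh2*, transcription factors of neural progenitors and young neurons that are named here after their values were seen, with log2 fold changes of 0.68, 0.97, 1.13 and 0.65. *elavl3*, an RNA-binding protein of neurons, was at 771 ± 57.2 CPM in injured and 800.3 ± 11.6 CPM in control hemispheres (SD, n = 3 each), with a log2FC of -0.055 ± 0.056 (SE, adjp = 0.583). *elavl4* had a log2FC of -0.096 ± 0.042 (SE, adjp = 0.171) and *dpysl3* one of 0.13 ± 0.055 (SE, adjp = 0.157), and with the replicate number as a block their adjp was 0.0313 and 0.0273. With the block 2 genes of the list were called lower, as were 16.2% of all genes tested. Without control replicate 1, 3 genes of the list were called higher.

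In the list for mature neurons 9 of 13 genes fell, with a median log2 fold change of -0.22. None rose by edgeR or DESeq2, and 0 were higher at an unadjusted *p*-value below 0.05. The abundant *gad2* was not called, at 992 ± 28.5 CPM in injured and 1025 ± 27.6 CPM in control hemispheres (SD, n = 3 each). Its log2FC was -0.048 ± 0.040 (SE, adjp = 0.488), and the conditions overlapped. *snap25a*, of the synaptic release machinery, and *grin1a*, a glutamate receptor subunit, fell by 0.24 ± 0.038 (SE, adjp = 0.00789) and 0.29 ± 0.042 (SE, adjp = 0.00589) on the log2 scale. With injured library 2 alone against the controls, 4 of these genes were called.

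In the proliferation list 19 of 22 genes rose, with a median log2 fold change of 1.22. *mki67*, a protein of dividing cells, averaged 36.4 ± 9.02 CPM in injured and 13.4 ± 1.44 CPM in control hemispheres (SD, n = 3 each). Its log2FC was 1.44 ± 0.17 (SE, adjp = 0.00306). The more abundant *pcna* and *ccnd1* had log2 fold changes of 0.46 ± 0.080 (SE, adjp = 0.0101) and 0.47 ± 0.080 (SE, adjp = 0.00939). *mcm7* was not called, with a log2FC of 0.32 ± 0.20 (SE, adjp = 0.356). The 5 members called had log2 fold changes between 0.36 and 0.74. This interval held 8 of the 14 radial glia genes, with 2 above it, and 4 of the 22 proliferation genes, with 17 above it. It also held 2 of 15 newborn neuron genes, with 3 above it, and 0 of 13 mature neuron genes. Of the endothelial genes it held 4 of 10, with 4 above it, and of the oligodendrocyte lineage 3 of 13, with 5 above it. Of microglia and leukocyte genes it held 1 of 14, with 13 above it. Whether the lists differ from the members was not tested.

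Markers of other cells moved with the condition too. Of the microglia and leukocyte genes 14 of 14 rose, and their summed CPM were between 2145 and 2588 in injured and between 671 and 728 in control libraries. The endothelial genes rose in 9 of 10 cases, with summed CPM between 254 and 295 in injured and between 182 and 188 in control libraries. This number was 4 without control replicate 1 or 2, 5 without injured replicate 2 or control replicate 3, and 7 without injured replicate 1 or 3. In the oligodendrocyte lineage list 7 of 13 genes rose, and the summed CPM were between 640 and 871 in injured and between 476 and 621 in control libraries. With the replicate block 11 rose and 1 fell, beside 19.9% higher and 16.2% lower over all genes tested. The number that rose was 5 without injured replicate 2 or control replicate 1, and 4 without control replicate 3. Their part in the changes of the Sox genes was not tested. No matched marker of microglia, endothelial cells or oligodendrocytes was at 0.

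Of 11 pineal and photoreceptor genes tested, whose sums set injured replicates 1 and 3 apart, 9 were called higher by edgeR. This number was 0 without injured replicate 3 or any 1 control library, 1 without injured replicate 1 and 11 without injured replicate 2. The list for habenula and diencephalon had 1 of 4 tested genes called, with sums of 57.6, 44.8 and 43.4 CPM in injured replicates 1, 2 and 3 and between 38.9 and 39.9 CPM in control libraries, with 0 called without control replicate 2 or 3 and 2 without injured replicate 3. With injured library 2 alone against the 3 controls, the lone library being assumed to vary like the others, 5 members were called higher, with log2 fold changes of 0.42 for *sox2*, 0.59 for *sox3*, 0.64 for *sox4a*, 0.49 for *sox4b* and 0.95 for *sox11a*. In that comparison SOX1 (ENSDARG00000008131), *sox19a* and *sox11b* were not called, with log2 fold changes of 0.059, 0.93 and -0.32.

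**Figure D4:**
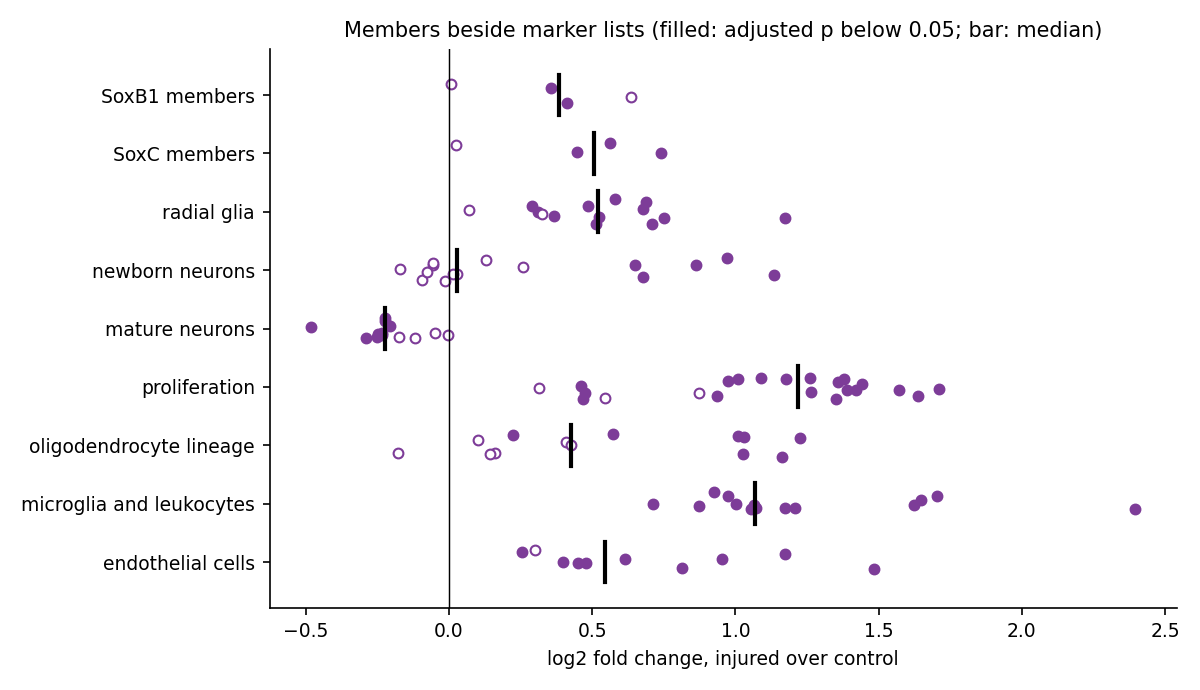
Log2 fold change of injured over control (horizontal axis) of each tested gene of SoxB1, SoxC and the marker lists. Filled points have an adjusted *p*-value below 0.05 and black bars give the median, which was 0.39 for SoxB1, 0.51 for SoxC, 0.52 for radial glia, 0.028 for newborn neurons and -0.22 for mature neurons.

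Genes with the most similar profile were found by the root-mean-square distance of log2 CPM, centred on the mean of the 6 libraries, among genes with a mean of at least 10 CPM. The profile of the SoxB1 sum, with a range of 0.55 on this scale, was nearest to *smtnb*, *ECI2* and *lbr*, at distances of 0.019, 0.022 and 0.026. That of the SoxC sum, with a range of 0.53, was nearest to *cast*, *asap2a* and *tmbim1b*, at distances of 0.026, 0.030 and 0.031. The distances are a description over 6 libraries that carry the condition and the replicate number together.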

How the data were processed

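Polyadenylated RNA was sequenced from 3 injured and 3 control hemispheres. Raw counts per gene were deposited, with no normalization. To make them the authors aligned reads with STAR on GRCz11, retained for multi-mapped reads the alignment of highest quality, and ran HTSeq (union mode). Versions, strand setting and annotation release are not given in the sources used here. Reads on no gene, 27.2% to 29.7% of a library, and on more than 1 gene, 1.45% to 1.53%, were left out.

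The test was edgeR 4.0.16 under R 4.3.3, using filterByExpr, TMM, glmQLFit and glmQLFTest. Condition was the single term, and Benjamini-Hochberg adjusted values were called below 0.05. Each SE was obtained as log2FC over the root of the F statistic, without sign. The study calls the samples biological replicates without saying which came from the same fish, and *p*-values measure the spread between these samples. DESeq2 1.42.0, Bonferroni adjustment, RLE and upper-quartile normalization, library size alone, no filter, a mean above 100, the replicate block, each library left out and injured library 2 alone were the alternatives. Exact permutation tests used scipy 1.17.1. The edgeR fit without a block and the DESeq2 fit were tested on simulated counts with changes larger than those of the members called. Libraries that deviate together, the replicate block, the ratios and the profile distances were not simulated.

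Across genes, the deviations from the condition means had a correlation of 0.519, 0.396 and 0.321 between injured and control libraries sharing a number, against -0.361 to -0.0832 for other pairs. Deviations cancel over the libraries of a condition, so that positive values for shared numbers bring negative values for other pairs. The pairing is taken from the positive values and from the use of the opposite hemisphere as control. Genes are not independent replicates.

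Members and lists were chosen with earlier results of these data known. Of 184 list entries, 149 matched 1 gene. Genes named are all Sox genes, up to 4 genes with the highest mean CPM of each list, and the 3 genes nearest to each family sum, with *emx3*, *sox2ot* and the genes marked in the text added after their values were seen. Gene names came from the Ensembl and RefSeq tables and from the gene tables of the study, whose fold changes and *p*-values were not used.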

Additional observations from a re-analysis of the deposited data

How the results depend on the processing

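Over the 16 alternatives for each of 8 members, 117 of 128 values kept their side of the threshold and, where called, their direction, 10 lost the call and 1 gained it, and no called member was reversed. Under Bonferroni adjustment of the edgeR test 0 members were called higher, although 5 passed 0.05 before adjustment, while DESeq2 called 4 under the same Bonferroni rule. With the replicate block 6 members were called, *sox19a* being added at an adjusted *p*-value of 0.00202, and the block changed no other call of a member. Over all genes tested, 3715 were called without and 8141 with the block, 51 under Bonferroni adjustment, 4991 by the DESeq2 Wald test, and between 1797 and 3017 with each library left out, the lowest without control replicate 1. With each library left out, between 4 and 5 members were called higher, the lowest without injured replicate 1 or 2 or control replicate 1 or 3, and the log2 difference of the SoxC to SoxB1 ratio was between 0.023 and 0.14. With injured library 2 alone 5 members and 1738 genes were called. Without TMM factors, that is with library size alone, 3051 genes were called higher and 470 lower, against 2628 and 1087 with TMM, and the number of members called was 5. With injured library 2 alone, the log2 fold changes of the pineal and photoreceptor genes *rcvrn3*, *rbp3*, *saga* and *gnat1* were -0.48, -0.054, -1.30 and -0.63, against 7.53, 5.63, 7.65 and 6.78 with all libraries. Other genes of that list, named here after their values were seen, did not all go this way. In injured replicate 2, *asmt* and *aanat2* lay below all control libraries, but *tph2*, *lhx4*, *rbp4l*, *crx*, *gnat2* and *asmt2* lay above them. For *tph2* this was 0.416 CPM, against 0.168 to 0.223 CPM in control libraries. For the member with 0 reads, depth sets the limit from counting error given above, and why it had no read was not tested. The number of libraries limits the exact tests of ratios.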
